A study of Homo sapiens with 8 samples.

Results

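The genes described here encode 10 secreted proteins, CSF2, IL18, INHBA, IL6, LIF, IL1A, IL1B, GDF15, GAS6 and TGFB1, found by their symbols among the 56269 genes of the expression tables. They were selected on their TPM (a transcript level scaled for transcript length and library size) in these same 8 libraries, with results of the drug and line comparisons known, so their values are a description and no independent evidence of a drug effect. The libraries came from SNU1079 and SSP25, established cell lines of cholangiocarcinoma (CCA), a cancer of the bile duct epithelium. Both lines are labelled wildtype, although the paper on these data reports mutations of IDH1 and ARID1A in SNU1079. Each line received, for 48 h, vehicle (0.01% DMSO), BETp (ARV825 at 40 nM, a compound that recruits the ubiquitin ligase cereblon to degrade BET bromodomain proteins), mTORi (AZD8055 at 50 nM, an inhibitor of the kinase mTOR) or BETp + mTORi, for which the labels give no doses. There was 1 library for each line and treatment, so the 2 lines stood as the replicates of a treatment, and p-values measure the spread between these 8 libraries only. In RNA from whole cultures, fewer cells expressing a gene and less of its RNA in each cell cannot be told apart.

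Cytokines and growth factors carry signals between the cells of a tumor. Interleukin-1 and interleukin-18 act through receptors that share MYD88 and IRAK kinases and reach NF-kappaB, interleukin-6 and LIF act through the shared receptor chain gp130 (IL6ST) and STAT3, and the activins and TGF-beta act through serine/threonine kinase receptors and SMAD proteins. BET proteins bind acetylated chromatin and help release RNA polymerase into gene bodies, and many inflammatory genes are known to depend on them, while mTOR couples nutrient supply to translation and growth.

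The libraries were alike in breadth. Genes at 1 TPM or above numbered 13308 to 14526 per library. The epithelial markers KRT7, KRT19, KRT8, KRT18 and SOX9 stood at 1 TPM or more in all 8 libraries, and the 8 epithelial markers summed to 7591.93 to 10610.71 TPM in SNU1079 libraries and to 1914.93 to 2389.75 TPM in those of SSP25. Of 10 leukocyte markers, CD68 reached 1 TPM in every library and CD14 did so in SSP25, while MS4A1 was listed at 0 in both lines. The median change of all 16060 tested genes on the log2(TPM + 1) scale was -0.08 (BETp), -0.11 (mTORi) and -0.19 (combination against vehicle), and the changes given here were not corrected for it. The keratins KRT8 (-0.38 ± 0.06, adjusted p 0.0428) and KRT18 (-0.51 ± 0.09, adjusted p 0.0488) were called lower with mTORi by limma, and of the 7 epithelial markers tested EPCAM was the one called for BETp, lower (-0.57 ± 0.10, adjusted p 0.0403), while KRT8 stood at 0.22 and SOX9 at 0.38 with BETp and the median of the 7 was 0.02. COL1A1, the 1 fibroblast or endothelial marker at 1 TPM or more throughout SNU1079, had 1002.53, 546.47, 599.11 and 272.22 TPM there under vehicle, BETp, mTORi and the combination, and the 8 such markers summed to at most 7.71 TPM in SSP25. Of 5 hepatocyte markers, SERPINA1 was the 1 at 1 TPM or more throughout SNU1079, with 41.75, 16.55, 17.71 and 7.64 TPM. The others were low there, with ALB at most 0.21, APOA1 0.11, TTR 2.23 and CYP3A4 1.31 TPM. In SSP25 the 5 summed to at most 0.67 TPM. The part of these markers in the members' changes was not tested. PTPRC, the pan-leukocyte marker, was at most 0.24 TPM.

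Of the members, 8 have a promoter entry in RefSeq (GRCh38.p14), and IL18 and LIF were not matched. The 250 bases before the start are shown for CSF2, INHBA and IL6, the members with the largest fitted change with BETp, since BET proteins act at promoters and enhancers. CSF2 lies on the plus strand (chr5:132073539-132073788), INHBA on the minus strand (chr7:41703091-41703340) and IL6 on the plus strand (chr7:22726950-22727199). Capitals mark a match on either strand to a motif. The 6 motifs searched, none of which overlapped another in these windows, were the TATA box TATAAA, the AP-1 site written as TGANTCA, the cyclic AMP response element (CRE) written as TGACGTCA, the C/EBP-ATF composite site written as TGATGCAA, the E-box written as CACGTG and the NF-kappaB consensus.
CSF2: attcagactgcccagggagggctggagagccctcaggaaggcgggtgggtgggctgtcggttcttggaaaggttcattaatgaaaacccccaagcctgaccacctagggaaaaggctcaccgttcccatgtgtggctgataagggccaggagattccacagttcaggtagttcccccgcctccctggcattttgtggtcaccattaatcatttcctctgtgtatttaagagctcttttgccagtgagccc
INHBA: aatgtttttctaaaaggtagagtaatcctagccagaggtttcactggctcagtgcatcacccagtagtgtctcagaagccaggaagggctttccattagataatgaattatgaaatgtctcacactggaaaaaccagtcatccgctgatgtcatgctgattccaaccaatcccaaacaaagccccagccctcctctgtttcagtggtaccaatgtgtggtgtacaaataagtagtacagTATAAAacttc
IL6: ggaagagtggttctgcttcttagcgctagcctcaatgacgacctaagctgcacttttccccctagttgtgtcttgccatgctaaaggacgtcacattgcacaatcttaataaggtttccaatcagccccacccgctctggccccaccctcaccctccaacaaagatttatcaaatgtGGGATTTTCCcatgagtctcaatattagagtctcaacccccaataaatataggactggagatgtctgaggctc
The INHBA window held TATAAA from -11 to -6 relative to the start, and that motif was found in 10.7% of all 35116 promoters of the same length. The IL6 window held the NF-kappaB consensus from -73 to -64, found in 5.21% of all promoters. The CSF2 window held none of the 6 motifs. AP-1 letters occurred in 6.57% of all promoters, the E-box in 6.34%, the CRE in 1.65% and the C/EBP-ATF letters in 0.772%. Among the other members, GDF15 held TATAAA from -29 to -24, and IL1A held it from -239 to -234 and TGACTCA from -12 to -6. The 3 windows shown had GC contents of 54.0% (CSF2), 42.8% (INHBA) and 47.6% (IL6), below the median of 58.0% over all promoters. On GRCh37, the build of the expression files, CSF2 spans 5:131409482-131411863 with 4 exons, INHBA 7:41706766-41745432 with 3 exons and IL18 11:112013976-112034819 with 6 exons.

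Because TPM is scaled for length, levels can be ordered within a library. Under vehicle, the order in SNU1079 was GDF15, INHBA, TGFB1, GAS6, LIF, IL18, CSF2, IL6, IL1B and IL1A, from 1055.98 TPM down to a listed 0. In SSP25 it was GDF15, IL1B, IL1A, GAS6, IL18, CSF2, IL6, TGFB1, LIF and INHBA, from 149.73 down to 6.38 TPM. Over the 4 treatments of SNU1079, the ranges of GDF15 and INHBA did not overlap, nor did those of IL18 and CSF2 or of CSF2 and IL6, while the other neighbours with ranges overlapped. In SSP25 the ranges of TGFB1 and LIF and of LIF and INHBA did not overlap, and all other neighbours overlapped. GDF15 alone made up 73.3% of the summed TPM of the 10 genes in SNU1079 under vehicle and 20.62% in SSP25.

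**Figure D1:**
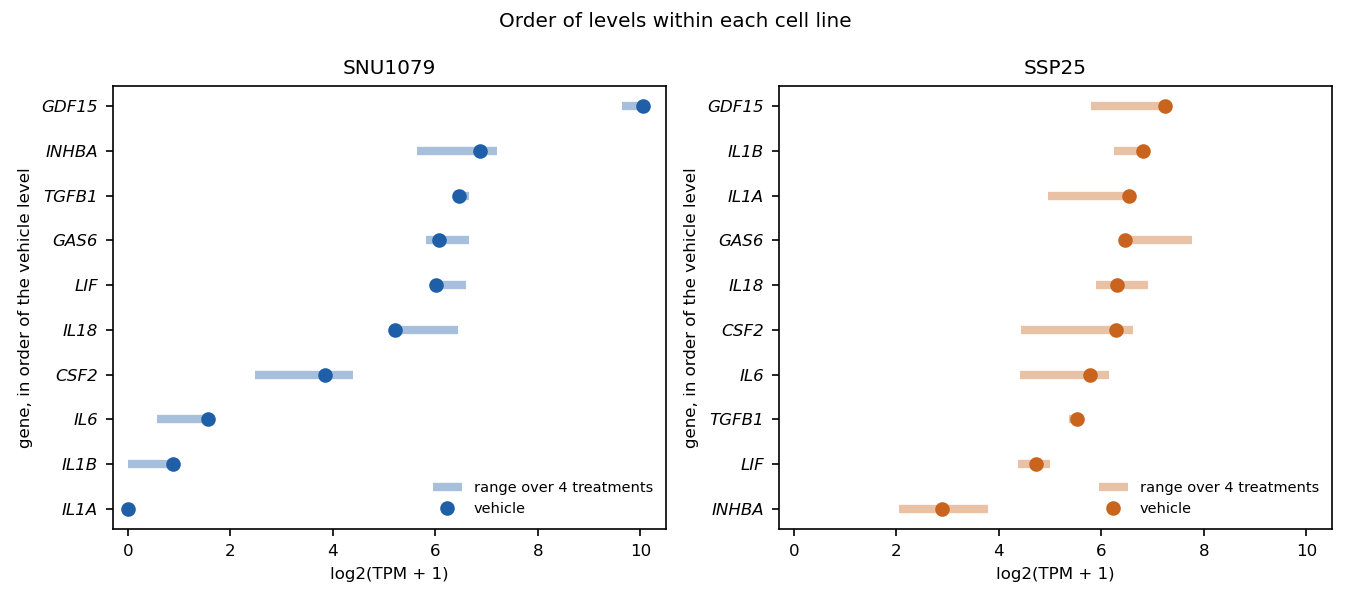
Levels of the 10 genes within each cell line, as log2(TPM + 1), with vehicle as a point and the range over the 4 treatments as a bar, in the order of the vehicle level. GDF15 stands first in both lines, at 1055.98 TPM in SNU1079 and 149.73 TPM in SSP25, and INHBA stands second in SNU1079 and last in SSP25.

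CSF2 encodes granulocyte-macrophage colony-stimulating factor, which supports the growth and activation of myeloid cells. Under vehicle, BETp, mTORi and the combination, in that order here and for each gene that follows, its level was 13.29, 4.55, 20.00 and 8.05 TPM in the SNU1079 cells. The SSP25 cells gave 77.10, 20.50, 96.59 and 22.19 TPM. Both libraries with BETp lay below both without it in each line, and CSF2 fell, with changes of -65.8% and -59.8% in SNU1079 (without and with mTORi) and of -73.4% and -77.0% in SSP25. Averaged over the other drug, the fitted change with BETp was -1.63 ± 0.16 (SE) on the log2(TPM + 1) scale, with an adjusted p of 0.00854 (limma, Benjamini-Hochberg over all tested genes), the 12th lowest change of the 16060 genes. The call held in each of 8 fits that left out 1 library, where the change ran from -1.78 to -1.47.

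INHBA encodes the beta A subunit of activin and inhibin, ligands of the TGF-beta family. Its levels in SNU1079 were 115.60, 48.72, 145.72 and 55.61 TPM. Those in SSP25 were 6.38, 3.17, 12.83 and 4.48 TPM. The libraries with BETp were again the lower pair in each line, and INHBA fell, with changes of -57.9% and -61.8% in SNU1079 and of -50.3% and -65.1% in SSP25. The fitted change with BETp was -1.19 ± 0.12, with an adjusted p of 0.00854 by limma, and the call held without any 1 library, with changes from -1.33 to -1.10. CSF2 and INHBA were the 2 of 10 members called for BETp, both lower, beside 1.82% of all tested genes (218 lower and 74 higher). The median change with BETp was -0.24 over the members and -0.08 over all tested genes.

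Both genes were lower with BETp in a line where their level was high and in one where it was low, since CSF2 was the higher in SSP25 and INHBA in SNU1079. The line difference in the BETp effect was 0.68 ± 0.15 for CSF2 (SNU1079 minus SSP25) with an adjusted p of 0.248 by limma, and -0.22 ± 0.21 for INHBA with an adjusted p of 0.723. With mTORi, CSF2 was higher in 4 of 4 pairs of libraries, by 8.24% to 76.9%, and INHBA likewise in 4 of 4, by 14.1% to 101%. Neither was called for mTORi by limma (0.42 ± 0.16, adjusted p 0.18, and 0.45 ± 0.12, adjusted p 0.0947).

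**Figure D2:**
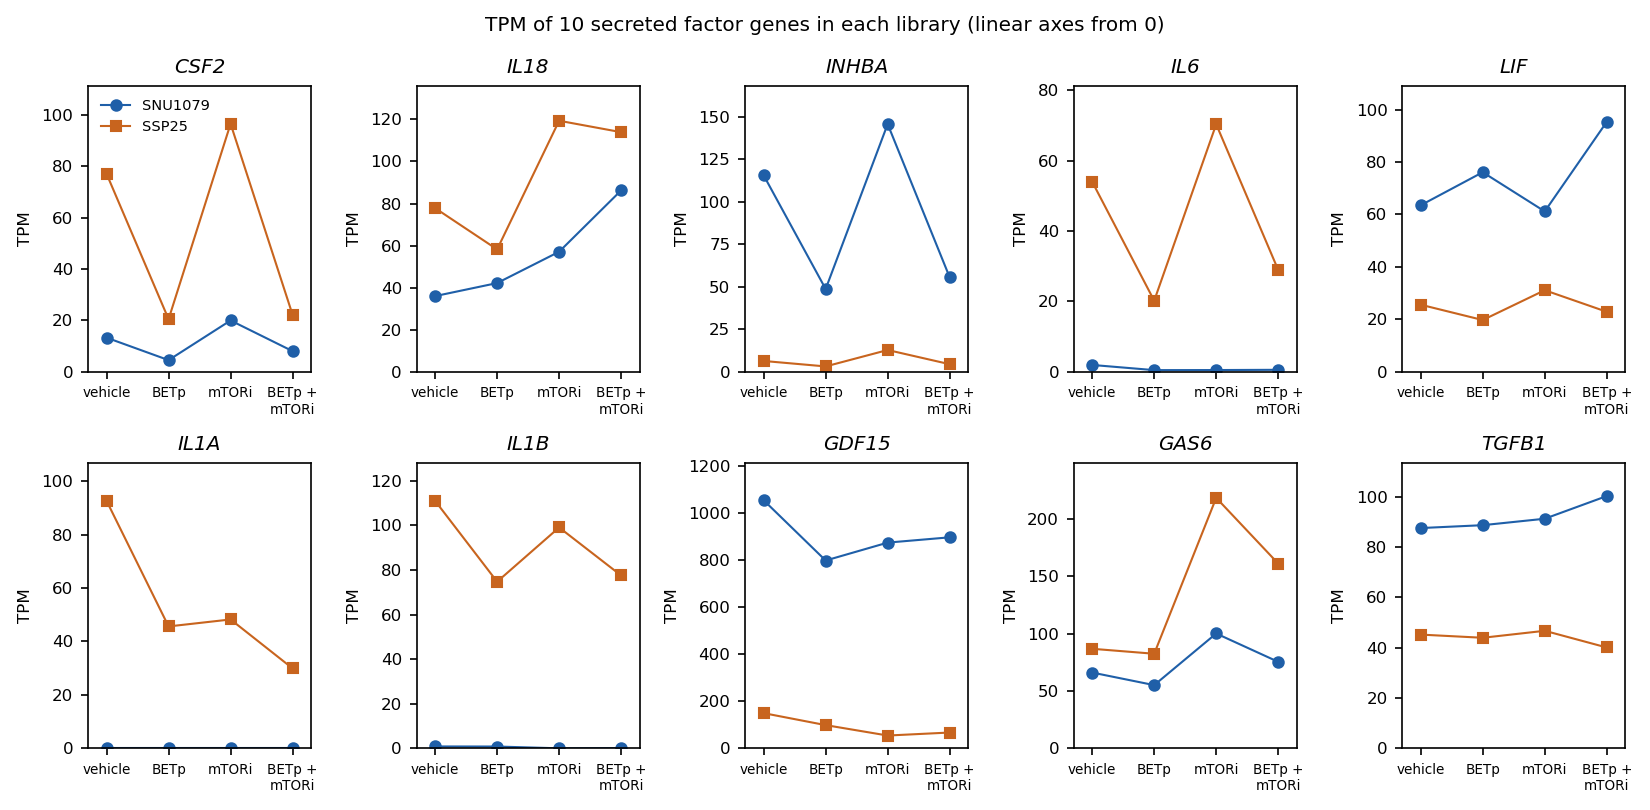
TPM of the 10 genes in each library on linear axes from 0, with treatment on the horizontal axis cell line by color and symbol, and lines joining the libraries of a cell line. CSF2 and INHBA stand lower in the libraries with BETp in both lines (CSF2 from 77.10 to 20.50 TPM in SSP25), while IL18 and GAS6 stand higher in those with mTORi (GAS6 from 86.81 to 218.45 TPM in SSP25).

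IL6 encodes interleukin-6, a gp130 cytokine known as a growth signal for bile duct tumor cells. SSP25 gave IL6 levels of 54.01, 20.21, 70.35 and 28.95 TPM. SNU1079 gave 1.95, 0.48, 0.50 and 0.57 TPM, and the vehicle library was the only one of that line above 1 TPM. The BETp pairs of SSP25 differed by -62.6% and -58.8%. The averaged change of -0.89 ± 0.27 was not called (adjusted p 0.119, limma), and it was called when the mTORi library of SNU1079 was left out (-1.24, adjusted p 0.0233).

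LIF encodes leukemia inhibitory factor, another gp130 cytokine. Its SNU1079 levels were 63.50, 76.10, 61.16 and 95.29 TPM. The levels for SSP25 were 25.58, 19.74, 31.11 and 22.89 TPM. LIF was higher with BETp in both pairs of SNU1079 and lower in both pairs of SSP25, and every SNU1079 library lay above every SSP25 library. Averaged over lines, its change with BETp was 0.03 ± 0.17 (adjusted p 0.945, limma).

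The interleukin-1 genes were near or at 0 in 1 of the lines. IL1A, which encodes interleukin-1 alpha, was listed at 0 in all 4 SNU1079 libraries and had levels of 92.60, 45.61, 48.22 and 29.90 TPM in SSP25. The combination differed from vehicle by -67.7% in SSP25, and each drug alone gave a value between those of vehicle and combination. IL1B, which encodes interleukin-1 beta, had 0.84, 0.80, 0.00 and 0.12 TPM in SNU1079, against 111.01, 74.74, 99.08 and 77.53 TPM for SSP25. Its BETp pairs in SSP25 differed by -32.7% and -21.8%. Neither gene was called for either drug (IL1A with BETp -0.42 ± 0.23, adjusted p 0.304, and IL1B -0.20 ± 0.18, adjusted p 0.552, limma), and the IL1A average includes the SNU1079 differences of 0. The genes are neighbours on chromosome 2, 45257 bases apart on GRCh37.

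IL18 encodes interleukin-18, which is made as an inactive precursor and cut by caspase-1. SNU1079 had IL18 levels of 36.00, 42.20, 57.09 and 86.25 TPM. SSP25 had levels of 77.83, 58.20, 119.37 and 113.94 TPM. Both libraries with mTORi lay above both without it in each line, and the increases were 58.6% and 104% in SNU1079 (without and with BETp) and 53.4% and 95.8% in SSP25. The fitted change with mTORi was 0.81 ± 0.14, with an adjusted p of 0.0498 by limma.

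GAS6 encodes the ligand of the receptor kinases AXL, TYRO3 and MERTK. GAS6 levels in SNU1079 were 66.07, 55.11, 100.14 and 75.42 TPM. Its levels in SSP25 were 86.81, 82.47, 218.45 and 161.14 TPM. In each line, the libraries with mTORi lay above those without, by 51.6% and 36.9% in SNU1079 and by 152% and 95.4% in SSP25, and with BETp GAS6 was lower in 4 of 4 pairs. The fitted change with mTORi was 0.83 ± 0.13, with an adjusted p of 0.0428 by limma, and that with BETp was -0.29 ± 0.13 (adjusted p 0.239). IL18 and GAS6 were the 2 of 10 members called for mTORi, both higher, beside 1.05% of all tested genes (26 higher and 142 lower), and the median change was 0.11 over the members and -0.11 over all genes. Both calls sat close to the threshold and were lost in each of 8 fits without 1 library, where the adjusted p (limma) ran from 0.0727 to 0.167 for IL18 and from 0.0892 to 0.144 for GAS6, with the direction kept.

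GDF15 encodes a stress-induced member of the TGF-beta family. SNU1079 libraries held 1055.98, 799.46, 875.66 and 898.17 TPM of GDF15. SSP25 libraries held 149.73, 98.77, 54.40 and 67.21 TPM, and mTORi alone differed from vehicle by -63.7% there. The averaged change with mTORi was -0.52 ± 0.22 (adjusted p 0.21, limma). TGFB1, which encodes the founding member of that family, had a range of 87.49 to 100.20 TPM in SNU1079, against 40.05 to 46.68 TPM for SSP25. Its averaged changes were -0.03 ± 0.08 with BETp and 0.04 ± 0.08 with mTORi, the smallest standard errors among the members for these drugs, and the sign of the BETp change turned under quantile normalization and after rescaling without mitochondrial genes.

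**Figure D3:**
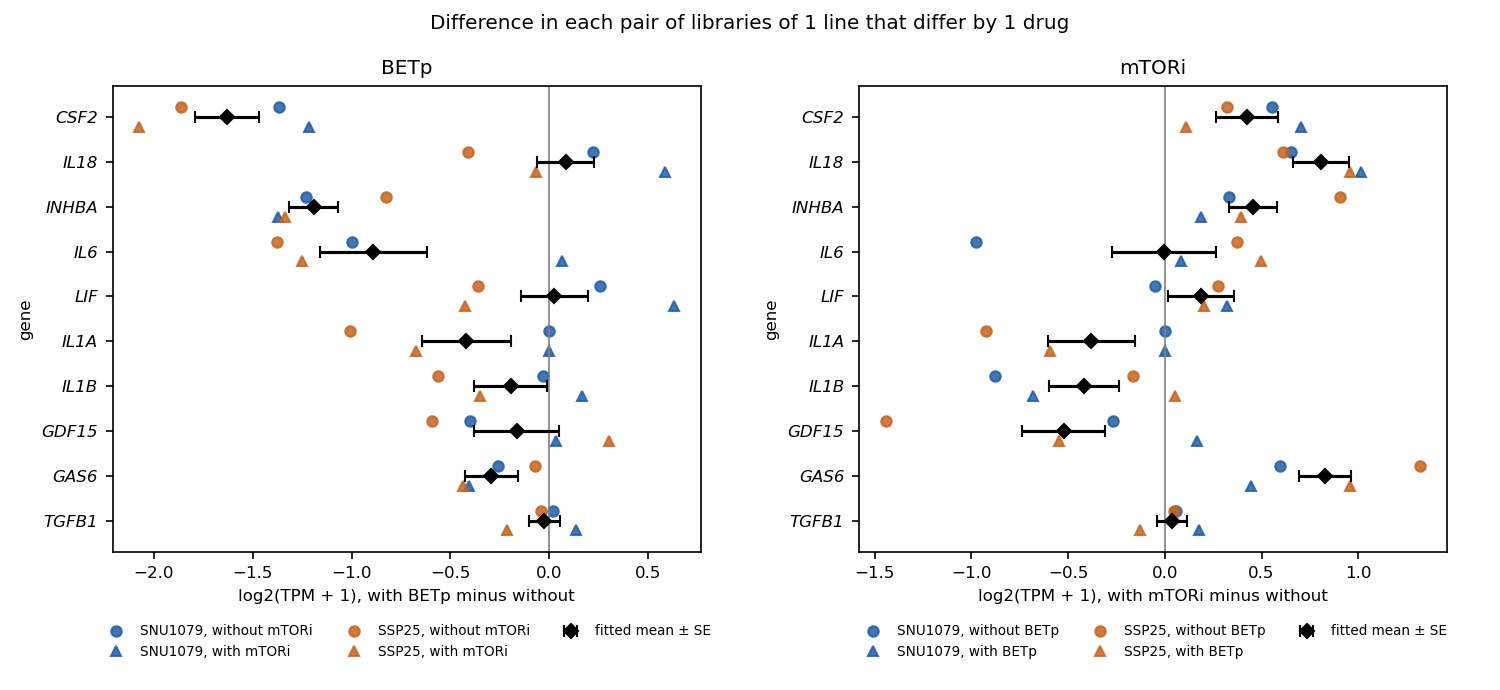
Difference of log2(TPM + 1) for each pair of libraries of 1 line that differ by 1 drug (colored points) and the fitted average with its SE (black diamonds), for BETp and mTORi. CSF2 and INHBA lie below 0 in all 4 BETp pairs (fitted -1.63 and -1.19), and IL18 and GAS6 lie above 0 in all 4 mTORi pairs (fitted 0.81 and 0.83).

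Against vehicle, the combination gave -1.21 ± 0.25 for CSF2 (adjusted p 0.0571), -0.74 ± 0.17 for INHBA (adjusted p 0.0689) and 0.89 ± 0.20 for IL18 (adjusted p 0.0636) by limma. None of the 10 members was called by limma, beside 1.81% of all genes, and 6 had an unadjusted p under 0.05 (25.8% of all genes did). Robust eBayes also called 0 members, but it called only 9 of all 16060 genes. The median change was -0.65 over the members and -0.19 over all genes. With a filter at 5 TPM, CSF2 (adjusted p 0.0435) and IL18 (adjusted p 0.0491) were called in the same limma comparison. Single drugs against vehicle share the vehicle libraries with the combination and rest on 2 libraries a side. There CSF2 stood at -1.61 ± 0.25 with BETp (adjusted p 0.212) and GAS6 at 0.96 ± 0.19 with mTORi (adjusted p 0.413) by limma. No member was called for BETp alone (3 at an unadjusted p under 0.05, as were 8.9% of all genes) or for mTORi alone (4, beside 10.3%), beside limma calls for 0.00623% and 0.0125% of all genes. Robust eBayes also called 0 members, and 1 of all 16060 genes for each drug.

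Departure from additivity, the combination change minus the sum of both single changes, was -0.03 ± 0.35 for CSF2, -0.33 ± 0.24 for INHBA, 0.35 ± 0.28 for IL18 and -0.26 ± 0.27 for GAS6. Limma called 0 of 10 members (0 at an unadjusted p under 0.05, as were 2% of all genes), beside 0% of all genes called. Robust eBayes called 0 members and 1 of all 16060 genes. A departure of the size of these errors was not detectable with 2 lines. Differences between the lines in the effect of a drug were called for 0 of 10 members by limma and by robust eBayes, beside 0.00623% of all genes called for BETp and 0% for mTORi. For each drug 5 members had an unadjusted p under 0.05, as did 12.4% of all genes for BETp and 14.2% for mTORi. IL1A and IL1B were among them for both drugs. IL1A was listed at 0 in every SNU1079 library and IL1B was at most 0.84 TPM there. Both passed the filter through SSP25, so their line differences say nothing about a response in SNU1079. Line differences in the BETp effect (SNU1079 minus SSP25) included 0.85 ± 0.37 for IL6 (adjusted p 0.445), 0.84 ± 0.20 for IL1A (adjusted p 0.264) and 0.84 ± 0.16 for LIF (adjusted p 0.212) by limma, and that of GDF15 in the mTORi effect was 0.95 ± 0.32 (adjusted p 0.307). The value for IL1A is only its SSP25 change with the sign turned, since its SNU1079 differences were 0. IL6 stood at 0.48 to 1.95 TPM in SNU1079, so its value also leans on levels near the floor.

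Between the lines themselves, limma called 75.6% of all tested genes, so that a call says little about a member, and the 4 libraries of a line differ by treatment and are not replicate cultures. INHBA (3.58 ± 0.12 log2), GDF15 (3.38 ± 0.22), LIF (1.53 ± 0.17) and TGFB1 (1.05 ± 0.08) were higher in SNU1079. CSF2 (-1.99 ± 0.16), GAS6 (-0.79 ± 0.13) and IL18 (-0.75 ± 0.14) were higher in SSP25. IL1A, IL1B and IL6 passed the filter on low values through SSP25, where they are high, so that a difference between the lines was fixed for them and their levels above stand as the description. The 10 leukocyte markers summed to 76.62 to 86.83 TPM in SNU1079 libraries and to 169.17 to 239.59 TPM in SSP25, with CD14 and CD68 the ones at 1 TPM or more there and MS4A1 at 0, and their part in these line differences was not tested.

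Receptors and partners of the members were named for their role with their values known. The GM-CSF receptor alpha chain CSF2RA stood between 60.87 and 98.61 TPM in SSP25 and between 0.11 and 0.72 TPM in SNU1079, while the signalling chain it pairs with, CSF2RB, was at most 0.04 TPM in any library. The interleukin-18 receptor chain IL18R1 had 1.69 to 3.57 TPM in SNU1079 and reached at most 0.18 TPM in SSP25. The other chain of that receptor, IL18RAP, was at most 0.09 TPM in any library. IL18BP, which binds and blocks interleukin-18, had 31.68 to 54.40 TPM in SNU1079 against 1.14 to 1.60 TPM for SSP25. CASP1, the protease that matures interleukin-1 beta and interleukin-18, stood between 35.73 and 66.48 TPM in SSP25 and between 1.16 and 2.82 TPM in SNU1079. The decoy receptor IL1R2 showed the reverse order, from 7.74 to 16.94 TPM in SNU1079 and at most 0.08 TPM in SSP25. AXL, a receptor of GAS6, stood between 86.54 and 173.19 TPM over all libraries, and GFRAL, the receptor of GDF15, was listed at 0 in each.

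The wider pathways were read through 13 lists with 169 genes, of which 129 were tested. The lists were chosen with earlier results of these data known. Their shares called, set beside those of all genes, are therefore a description and no test of enrichment. For BETp, 7 of the 129 were called (5.43%, beside 1.82% of all genes), 6 lower and 1 higher, with a median change of -0.13. Among ligands, INHBE, another inhibin beta subunit, fell (-1.29 ± 0.20, adjusted p 0.0324, limma): without mTORi it went from 6.38 to 0.98 TPM (SNU1079) and from 3.41 to 1.17 TPM (SSP25). EBI3, a subunit shared by interleukin-27 and interleukin-35, fell (-1.20 ± 0.15, adjusted p 0.0170, limma), as did TNFSF10, the death ligand TRAIL (-0.66 ± 0.12, adjusted p 0.0434). In the list of inhibitors, latency and release, THBS1, a matrix protein that activates latent TGF-beta, fell (-0.73 ± 0.08, adjusted p 0.0129, limma), and LTBP2, a latent TGF-beta binding protein, fell (-0.71 ± 0.13, adjusted p 0.0446). IRAK1, a kinase of the interleukin-1 receptor pathway, fell (-0.41 ± 0.08, adjusted p 0.0467, limma). The gene that rose was EGR1, an immediate early transcription factor (1.02 ± 0.14, adjusted p 0.0233, limma), which without mTORi went from 3.79 to 9.58 TPM (SNU1079) and from 0.40 to 1.36 TPM (SSP25). None of the 14 JAK-STAT, 15 NF-kappaB or 19 TGF-beta receptor and SMAD genes tested was called for BETp by limma, with 1, 4 and 2 of them at an unadjusted p under 0.05, as were 22.8% of all genes. Those furthest down were STAT5A (-0.33), TNFAIP3 (-0.63, adjusted p 0.067, limma) and SKIL (-0.46, adjusted p 0.0708), the last of them a repressor of SMAD activity. STAT5A was at most 0.03 TPM in SNU1079. Furthest up were STAT6 (0.17), REL (0.13) and ACVR1B (0.11). The other pathway lists without a call ran from IL1RN (-0.84, adjusted p 0.0874, limma) to IL6R (0.67, adjusted p 0.0812) and ZFP36 (0.67, adjusted p 0.0536).

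**Figure D4:**
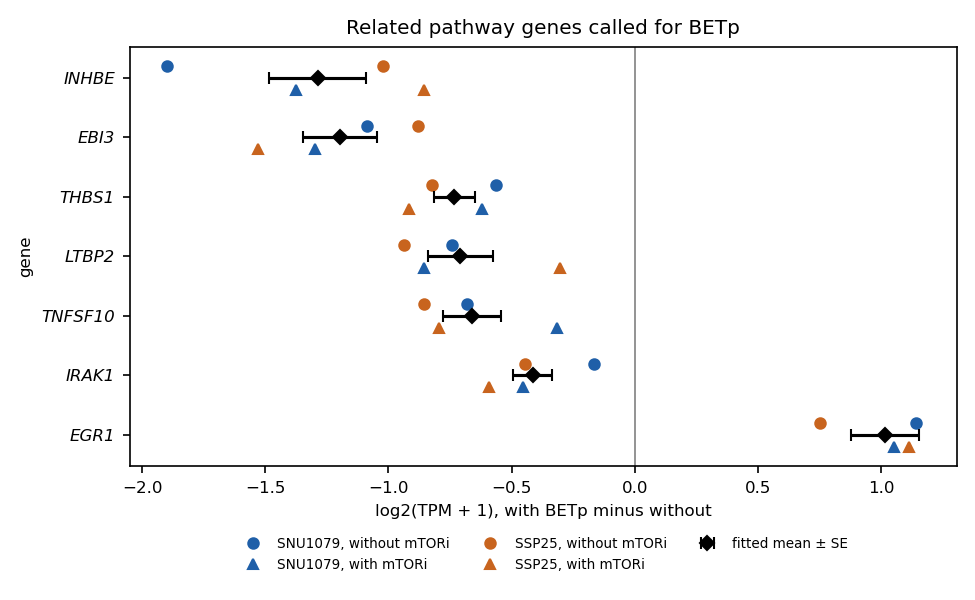
Difference of log2(TPM + 1) with BETp minus without, for the 7 related pathway genes called, in each pair of libraries (colored points) and as the fitted average with its SE (black diamonds). INHBE, EBI3, THBS1, LTBP2, TNFSF10 and IRAK1 lie below 0 in all 4 pairs and EGR1 above 0 in all 4.

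For mTORi, 4 of the 129 pathway genes were called (3.10%, beside 1.05% of all genes), each lower with an adjusted p of 0.0428 by limma. They were TNFSF10 (-0.82 ± 0.12), DDIT3 (-0.63 ± 0.08), a stress-response factor placed among the regulators of GDF15, ADAM17 (-0.47 ± 0.07), the sheddase of the interleukin-6 receptor, and NFKBIB (-0.47 ± 0.08), an inhibitor of NF-kappaB. With mTORi alone DDIT3 went from 63.74 to 40.32 TPM (SNU1079) and from 143.34 to 79.69 TPM (SSP25). FSTL3, which binds and blocks activin, stood at 39.65 TPM under vehicle and 99.79 with mTORi in SSP25 and at 197.20 and 211.19 TPM in SNU1079, with no call (0.74 ± 0.19, adjusted p 0.0869, limma). For the combination, 4 of the 129 were called (3.10%, beside 1.81% of all genes), and INHBE (-2.00), TNFSF10 (-1.48), EBI3 (-1.41) and IRAK1 (-0.75) were called lower against vehicle. Without 1 library, the number of pathway genes called ran from 0 (without the mTORi library of SNU1079) to 6 (without its vehicle library) for BETp, was 0 each time for mTORi and ran from 0 to 2 for the combination.

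For the line comparison, 2 of the lists in which every gene was tested are given, chosen after their values were seen. Over all tested genes, 6275 were called higher in SNU1079 and 5870 higher in SSP25. Of 15 NF-kappaB genes, 3 were called higher in SNU1079 and 10 higher in SSP25. Of 19 TGF-beta family receptors and SMADs, 14 were called higher in SNU1079 and 4 higher in SSP25, with ACVR2B at 1 TPM or more only in SNU1079. The difference between the lists was not tested. TNFAIP3, an NF-kappaB target and inhibitor, stood between 19.66 and 40.80 TPM in SSP25 and between 1.89 and 3.74 TPM in SNU1079.

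The pattern of CSF2, IL18 and INHBA over the 8 libraries was compared with that of 10642 other genes after each line was centred on its mean. This is a description over libraries that share 2 lines and the same drugs. For CSF2 the genes most like it were THBS1 (Pearson's r 0.99), UFC1 (0.98), HSPBAP1 (0.98), C12orf57 (0.98) and ZBTB12 (0.97). For INHBA they were KLHL23 (0.99), NHP2 (0.98), PFDN4 (0.98), MYADM (0.98) and PMEPA1 (0.97), and for IL18 they were RPS27 (0.98), ATP6V1G1 (0.98), MDP1 (0.97), RP11-371A22.1 (0.96) and ZNF581 (0.96). THBS1 stood at 142.89, 80.23, 143.00 and 75.28 TPM in SSP25 under vehicle, BETp, mTORi and the combination, and at 362.59, 244.81, 425.48 and 276.17 TPM in SNU1079. PMEPA1, a known target of TGF-beta and activin signalling, was the last of those named for INHBA, and a link to activin was not tested. Its levels were 9.55, 7.02, 13.87 and 8.37 TPM in SSP25 and 68.19, 53.71, 75.77 and 51.31 TPM in SNU1079. Of the other members, the one most like CSF2 was INHBA (r 0.91), at place 96 among the 10642 genes. The one most like IL18 was GAS6 (r 0.72), at place 190, with LIF close to it (r 0.70, place 218). Each of these pairs, CSF2 with INHBA and IL18 with GAS6, was called for the same drug in these libraries, so the likeness is no separate evidence.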

How the data were processed

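RNA was sequenced from 8 libraries of SNU1079 and SSP25, and per the labels the libraries were strand-specific (dUTP method) with genome build GRCh37. The authors deposited TPM values per gene, in a table for each line. DESeq2 and edgeR appear in the submitters' notes, but need counts and were not used here. Which aligner and annotation were used is not given in the sources used here. The depth of the libraries is unknown, since TPM keeps none, and 0 columns were left unmapped.

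Values were taken as log2(TPM + 1), and genes reaching 1 TPM in 2 or more of 8 libraries were tested with limma 3.58.1 in R 4.3.3 (eBayes with trend, two-sided, Benjamini-Hochberg adjustment, threshold 0.05). A fold on this scale understates the change of low genes. The averaged drug effects and the line comparison came from a model of line, BETp and mTORi (4 residual degrees of freedom), comparisons with vehicle from line and treatment (3), and line differences from line by drug terms (2). Cell line pairs the libraries, since both libraries of a pair come from the same line: log2 values correlated at 0.979 to 0.985 on average within a line and 0.792 to 0.801 between lines. The averaged BETp test was tested on simulated data.

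The members and lists were chosen with earlier results of these data known. All members were named, with up to 3 called genes in each direction per list, and receptors for their role. Alternatives were a pseudocount of 0.1, no filter or one at 5 TPM, quantile normalization, rescaling without mitochondrial genes, robust eBayes without trend, no block and each library left out. Promoters are RefSeq windows on GRCh38.p14, and gene positions are GENCODE on GRCh37.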

Additional observations from a re-analysis of the deposited data

Results flagged for a closer look

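For 3 genes, both pairs of SNU1079 libraries were higher with BETp and both pairs of SSP25 libraries were lower. Some of these differences were near 0, and each compares 1 library with 1 other. Without mTORi, TGFB1 differed by 0.02 in SNU1079 and by -0.04 in SSP25. With mTORi, IL18 differed by -0.07 in SSP25. The median change with BETp over all tested genes was -0.08. The difference between the lines in the BETp effect (SNU1079 minus SSP25, log2 scale) was 0.65 ± 0.18 for IL18, 0.84 ± 0.16 for LIF and 0.20 ± 0.12 for TGFB1. Tested with limma over all genes, none passed, with adjusted p of 0.299 for IL18, 0.212 for LIF and 0.55 for TGFB1.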

How the results depend on the processing

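The BETp calls of CSF2 and INHBA held under a pseudocount of 0.1, a filter at 5 TPM, both other scalings and robust eBayes. The number of members called for BETp was 0 with no filter, where limma's adjusted p was 0.0581 for each, and 0 in the fit with no replicate block, which leaves the difference between the lines in the error, and ran from 2 to 3 without 1 library. The 2 mTORi calls (IL18 and GAS6) remained with a filter at 5 TPM, and were 0 under a pseudocount of 0.1, no filter, quantile normalization, rescaling without mitochondrial genes, robust eBayes, no replicate block and each left-out library (0 to 0). The direction was kept in each of these. For the combination, 2 members were called with the 5 TPM filter in place of 0. Why the other calls changed was not tested.

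Of related pathway genes, BETp called 4 under a pseudocount of 0.1, 4 under quantile normalization, 4 after rescaling, 3 by robust eBayes, 0 with no filter, 0 with no replicate block and 0 to 6 without 1 library. For mTORi these were 0, 0, 1, 0, 0, 0 and 0 to 0, with 9 at the 5 TPM filter, and for the combination 2, 0, 2, 0, 0, 0 and 0 to 2, with 12 at that filter. Over all genes, BETp calls fell from 292 to 21 with no filter and to 74 with robust eBayes, and mTORi calls from 168 to 2 and to 1.

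Signs turned for some uncalled changes, not all of them near 0 in the main fit. There LIF stood at 0.21 ± 0.25 with the combination, and with BETp GDF15 stood at -0.16 ± 0.22 and IL1B at -0.20 ± 0.18. IL1B with BETp was 0.038 under a pseudocount of 0.1. TGFB1 with BETp was 0.072 under quantile normalization and 0.013 after rescaling, and IL6 with mTORi was 0.10 and 0.0067. Without 1 library, BETp changes ran from -0.049 to 0.21 for IL18, -0.14 to 0.15 for LIF, -0.40 to 0.061 for GDF15 and -0.086 to 0.042 for TGFB1, mTORi changes from -0.24 to 0.34 for IL6 and -0.022 to 0.11 for TGFB1, and combination changes from -0.11 to 0.53 for LIF and -0.16 to 0.18 for TGFB1. Depth is unknown, so the counting error of levels under 1 TPM could not be estimated here.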
